A study of Mus musculus with 8 samples.

Results

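The genes described are those that start between 40 and 50 Mb of mouse chromosome 7 (coordinates of mm10, starts from 40000000 up to 50000000), measured in CD11c-positive cells of the spleen. The deposited table lists 129 genes in this window. Of these, 9 were left out by the rule (Irf3, Ftl1, Cd33, 3 Siglec genes and 3 ribosomal protein genes), which leaves 120 genes of the 13786 in the table. The window was chosen on the strain comparison itself, because an earlier look at these libraries showed many genes in it that differed more than 2-fold between the strains. The strain differences of its genes are therefore given as a description. Called and not called refer to a fit over all 13786 genes and support nothing about the window, and no test of the window or of a list was made.

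The RNA sequenced came from spleens of untreated 7-week-old females obtained from The Jackson Laboratory, 4 of C57BL/6 and 4 of B6.SLE123. B6.SLE123 (B6.NZMSLE1/SLE2/SLE3) is a lupus-prone congenic strain: it carries the Sle1, Sle2 and Sle3 susceptibility intervals of the NZM2410 strain on a C57BL/6 background, and C57BL/6 served as the control without them. The labels name the cells dendritic cells, while the methods give isolation by CD11c alone. In the labels' genotype field the strain number rises by 1 from mouse to mouse, so the strain was taken from the sample names.

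Sle3 was mapped to chromosome 7, so a congenic mouse of this kind carries foreign sequence on part of that chromosome. Where on chromosome 7 the congenic segment of these mice begins and ends was not analysed here, and neither were their genotypes. The window is dense in genes of unrelated function: kallikrein and zinc finger gene clusters, receptors and regulators of immune cells such as the neonatal Fc receptor (Fcgrt) and the Ets factor Spib, genes of cell death and DNA repair such as Bax and Pold1, and channels and synaptic genes that are best known from neurons. What they share is a position on the chromosome and not a pathway.

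The sequence before the start of a gene is where transcription is set off, and it is shown for 4 genes that were under 2 CPM (counts scaled to library size) in every mouse of one strain and higher in every mouse of the other. They were chosen after their values were seen, and Slc6a16 was under 2 CPM in every B6.SLE123 mouse too. Each line gives the 250 bases upstream of the RefSeq start in GRCm38.p6 (the sequence of mm10, which was read from C57BL/6), written 5′ to 3′ in the direction of the gene. Capitals mark 4 motifs, each searched on both strands. They are the GC box, which reads GGGCGG, and the core of PU.1 sites, which reads GAGGAA. The others are the TATA box, which reads TATAAA, and the CCAAT box, named by its letters, which on the other strand reads ATTGG. Matches of different motifs may overlap.
Myh14, chr7:44670844-44671093, minus strand: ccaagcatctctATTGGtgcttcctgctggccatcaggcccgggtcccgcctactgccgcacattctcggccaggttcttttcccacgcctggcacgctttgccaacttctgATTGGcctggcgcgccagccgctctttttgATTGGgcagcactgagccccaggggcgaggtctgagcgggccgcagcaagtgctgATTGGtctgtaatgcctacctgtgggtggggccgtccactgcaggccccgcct
Cpt1c, chr7:44974852-44975101, minus strand: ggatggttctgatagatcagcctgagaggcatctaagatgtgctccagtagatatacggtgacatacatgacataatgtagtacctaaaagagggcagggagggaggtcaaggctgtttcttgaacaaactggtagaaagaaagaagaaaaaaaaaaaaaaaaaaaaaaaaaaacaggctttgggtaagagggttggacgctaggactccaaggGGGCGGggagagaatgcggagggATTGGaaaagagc
Slc6a16, chr7:45240503-45240752, plus strand: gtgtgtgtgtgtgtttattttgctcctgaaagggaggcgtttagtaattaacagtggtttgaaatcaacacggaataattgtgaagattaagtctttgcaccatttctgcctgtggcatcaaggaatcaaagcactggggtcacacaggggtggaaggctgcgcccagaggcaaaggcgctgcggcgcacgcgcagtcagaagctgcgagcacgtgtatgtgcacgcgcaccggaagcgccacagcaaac
Htatip2, chr7:49758856-49759105, plus strand: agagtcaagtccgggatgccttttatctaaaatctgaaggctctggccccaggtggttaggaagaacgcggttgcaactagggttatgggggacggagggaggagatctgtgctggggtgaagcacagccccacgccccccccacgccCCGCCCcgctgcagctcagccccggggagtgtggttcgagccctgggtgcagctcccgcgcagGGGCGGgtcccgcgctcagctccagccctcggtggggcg

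The upstream bases of Myh14 held 4 CCAAT boxes and none of the other motifs. Cpt1c had 1 GC box and 1 CCAAT box, and Htatip2 had 2 GC boxes. The bases shown for Slc6a16 held none of the 4 motifs, and its RefSeq start lies 332 bases from the GENCODE start of the gene. Among the 120 genes, 100 matched an entry of the RefSeq promoter table by symbol, with 122 promoters in all. A GC box stood in 50.8% of these promoters against 32.7% of the 32851 promoters of the table. CCAAT boxes were found in 43.4% against 33.8%, the PU.1 core in 22.1% against 23.3% and a TATA box in 5.74% against 12.4%. For members that differed more than 2-fold there were 41 promoters of 30 genes. A GC box stood in 36.6% of these 41, a CCAAT box in 53.7%, the PU.1 core in 19.5% and a TATA box in 7.32%. The median GC content of the members' upstream bases was 56.8%, and that of all promoters was 52.4%. All promoters cover 27025 genes, including genes that are not among the 13786 measured in these cells. The sets compared are therefore unlike, and the part of this in the differences was not tested. A match of letters is a description of the sequence and was not tied to any measured binding.

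Most genes of the window differed between the strains. In the comparison of 4 against 4 mice, 81 of the 120 genes (67.5%) passed an adjusted p of 0.05 in the quasi-likelihood test of edgeR, against 53.4% of all genes tested. Of these, 32 were higher in B6.SLE123 mice, where the share over all genes was 26.7%, and 49 were lower, where it was 26.6%. The remaining 39 genes did not pass the threshold.

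More than 2-fold differences were found for 37 genes of the window (30.8%), against 11.1% of all genes. B6.SLE123 mice had the higher level for 14 of them, with 2.76% of all genes higher by this rule, and the lower level for 23, with 8.29% of all genes lower. For 83 genes (69.2%) the 4 values of one strain lay entirely above those of the other, 33 with higher and 50 with lower values in B6.SLE123 mice, against 48.9% of all genes. These shares come from the comparison that the window was chosen on, and nothing further is read from them.

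The direction was mixed. The median log2 fold change of the 120 genes, B6.SLE123 over C57BL/6, was -0.14. It stayed at -0.14 with Slc6a16, which had no count in C57BL/6 mice, set to its lower bound of 51.7-fold. This change could not move the median, since the fitted value and the bound both lie above it. Over all genes the median was -0.002 and over the 1092 genes of chromosome 7 it was -0.05. The size of the differences, without their sign, had a median of 0.53 on the log2 scale in the window and 0.25 over all genes. The spread between mice of a strain was also wider, with a median SD of 0.144 on the log2 scale against 0.112 over all genes. The genes of the window had fewer counts, with a median of 375 per mouse against 742 over all genes. The part of this lower level in the spread and in the size of the differences was not tested.

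**Figure D1:**
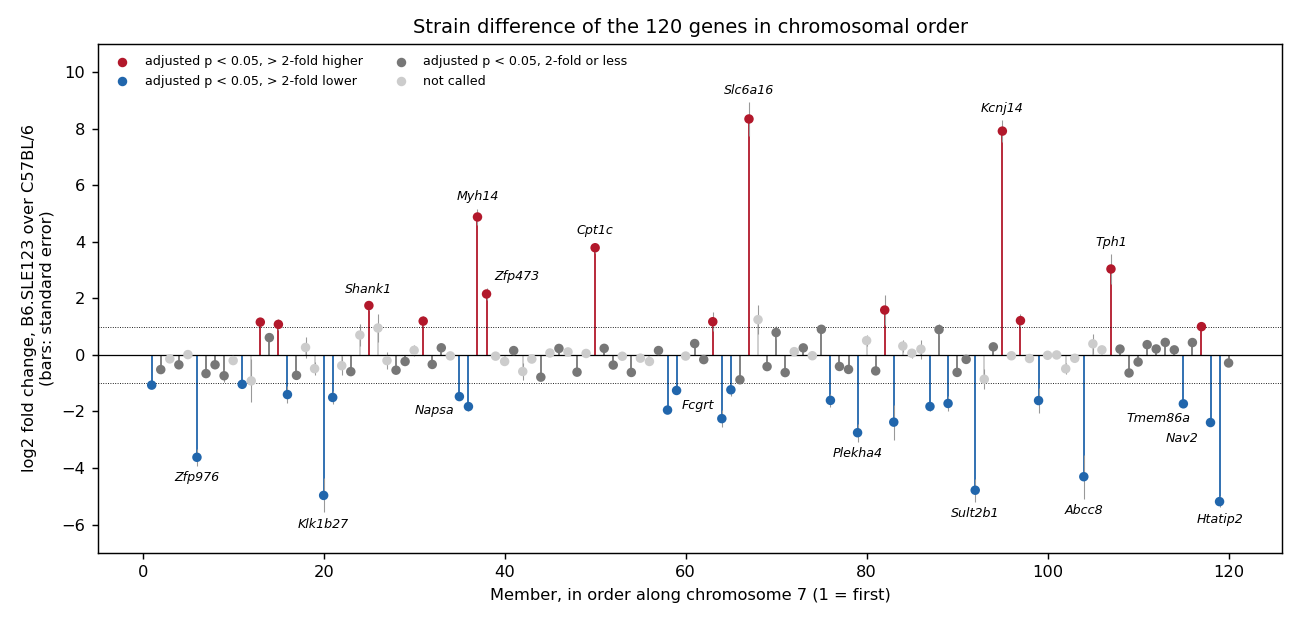
Fitted log2 fold change (B6.SLE123 over C57BL/6, vertical axis, bars give the standard error) of the 120 genes in their order along chromosome 7 (horizontal axis), coloured by call. The 14 genes more than 2-fold higher and the 23 more than 2-fold lower are interspersed along the window, and the values of genes with at most 3 counts in every mouse of a strain, such as Slc6a16 and Kcnj14, depend on the prior count of the fit.

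Other windows of the same chromosome had a lower share of such genes. In the window from 10 to 20 Mb, 21.6% of 102 genes were more than 2-fold different, and 4 of these were higher and 18 lower. The adjoining window from 30 to 40 Mb had 16.7% of 78 genes, and the one from 50 to 60 Mb had 14.3% of 14 genes. Over chromosome 7 as a whole the share was 15.2%. No test of these differences was made, since the window was selected for its share.

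**Figure D2:**
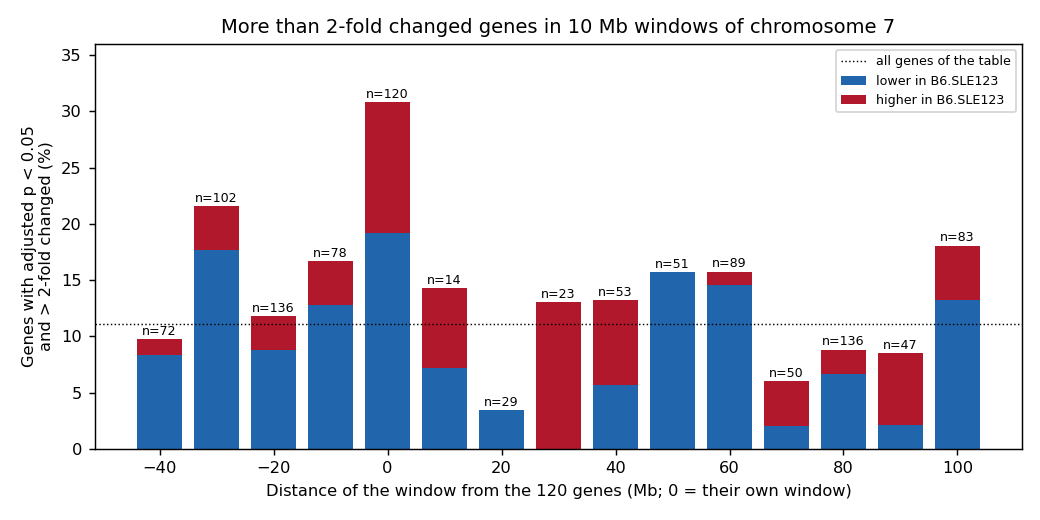
Share of genes with an adjusted p below 0.05 and a more than 2-fold difference (vertical axis, percent, stacked by direction) in windows of 10 Mb along chromosome 7, by their distance from the 120 genes (horizontal axis, Mb, with the number of genes above each bar). The window described here stands at 30.8%, the next at 21.6%, and the dotted line marks the 11.1% of all genes.

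Within the window the genes were spread unevenly. The first of the 10 stretches of 1 Mb held none of the 120 genes, while the stretch that starts at 44 Mb held 33 and the one at 45 Mb held 50. More than 2-fold differences were found for 9 of the 33 genes in the former, with 5 higher and 4 lower, and for 16 of the 50 in the latter, with 5 higher and 11 lower, where 11.1% of all genes differed by this rule. The 5 genes between 48 and 50 Mb all passed the adjusted p, as 53.4% of all genes did.

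The libraries were similar in size. The total count of a mouse ran from 25761789 to 32931045 in C57BL/6 and from 25563070 to 37367094 in B6.SLE123, and the 120 genes took 0.476% to 0.487% of the counts in the former and 0.392% to 0.411% in the latter. Mice of a strain differed by more than sampling noise. The chi-square per degree of freedom was 5.15 to 12.2 for pairs of C57BL/6 mice and 11.1 to 19.7 for pairs of B6.SLE123 mice. The 7 dendritic cell markers examined were all present, 6 of them higher (among them Itgax, Flt3 and Zbtb46) and Batf3 lower in B6.SLE123 mice, with a summed level of 17757 to 20745 CPM in C57BL/6 and 22096 to 23026 CPM in B6.SLE123 mice. This sum came mostly from Cd74 and H2-Aa. Cd74 averaged 11172.1 CPM in C57BL/6 and 13244.5 CPM in B6.SLE123 mice, and H2-Aa 4903 and 5890 CPM. The markers of red pulp macrophages, which take up red cells and iron in the spleen, were present too: all 8 of 8 (among them Spic, Vcam1 and Slc40a1) had an adjusted p below 0.05 and a lower level in B6.SLE123 mice, and their sum ran from 10009 to 12464 CPM in C57BL/6 and from 1408 to 2797 CPM in B6.SLE123 mice. Of the 6 B cell markers 1 was higher and 4 were lower, with sums of 641 to 719 CPM and 577 to 686 CPM. T cell markers summed to 449 to 485 CPM in C57BL/6 and 514 to 668 CPM in B6.SLE123 mice, mostly from Cd4 and Cd8a, which some spleen dendritic cells express too. Of the 6, Cd8a was higher and Lck lower, and Cd3e, Cd3g and Cd3d, with log2 fold changes of -0.49, -0.21 and -0.32, were not called. NK cell markers summed to 19.5 to 33.1 CPM and 14.9 to 30.8 CPM (none of 5 passed), neutrophil markers to 127 to 139 CPM and 34.2 to 51.3 CPM (3 of 5 lower), and erythroid markers to 62.5 to 245 CPM and 4.91 to 33.7 CPM (6 of 6 lower, with Hba-a2 at 0 in B6.SLE123 mice). The neutrophil sum came mostly from Csf3r and Mmp9, while S100a8 and S100a9, with log2 fold changes of -0.25 and -0.23, were not called. In a bulk sample, fewer cells of a type and less RNA of a gene per cell cannot be told apart. The part of the macrophage, neutrophil and erythroid markers in the differences of the window was not tested.

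Values per mouse are CPM of TMM-scaled libraries, listed for the 4 C57BL/6 and then the 4 B6.SLE123 mice, and a log2 fold change is that of B6.SLE123 over C57BL/6 from edgeR's fit with its standard error (SE). The lists by role were drawn up with earlier results of these data known. Over all genes 26.7% were called higher and 26.6% lower, and the counts of each list are to be read against these shares.

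Ion channels, transporters and synaptic genes differed in both directions. The table covers 12 of the 22 genes on this list, with 6 higher, 4 lower and 2 not called. Differences of more than 2-fold were found for 7, with 4 higher and 3 lower, and the median log2 fold change was 0.30. Over all genes 53.4% were called and 11.1% differed more than 2-fold. The transporter family genes Abcc8 and Slc6a21 and the potassium channel gene Kcnc1 are on no list and are not in these counts. Abcc8 was called lower, while Slc6a21 and Kcnc1 were not called. Kcnj14 (ENSMUSG00000058743, 45816460 to 45824782, minus strand, 4 exons) encodes an inwardly rectifying potassium channel subunit. It had counts of 0, 1, 1 and 0 in the C57BL/6 mice and of 166, 153, 166 and 166 in the B6.SLE123 mice. The groups are far apart, with almost no reads in any C57BL/6 mouse. The ratio of the strains, each scaled by its library sizes, was 294, with a 95% counting interval of 81 to 2430, and no other annotated gene overlaps its exons.

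Slc6a16, an orphan member of the neurotransmitter transporter family, followed the same pattern and was singled out after its values were seen, since its mean was under 100 counts. It had no count in any C57BL/6 mouse and 42, 61, 38 and 31 counts in the B6.SLE123 mice. Against a floor of 3 counts over the group, this is at least 51.7-fold higher, where the floor covers counting error only. Its neighbour and relative Slc6a21 had 8 counts in all C57BL/6 mice and 22 in all B6.SLE123 mice, a ratio of 2.48 (95% counting interval 1.06 to 6.44) that did not pass the adjusted p.

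Shank1, a scaffold of the postsynaptic density, was at 2.76, 2.92, 3.54 and 2.45 CPM in C57BL/6 and at 7.88, 11.02, 10.5 and 9.84 CPM in B6.SLE123 mice. Every B6.SLE123 mouse was above every C57BL/6 mouse, and the log2 fold change was 1.75 (SE 0.14). Its exons share 339 bases with 1700008O03Rik on the other strand. Grin2d, an NMDA receptor subunit, averaged 0.917 ± 0.298 CPM in C57BL/6 and 2.14 ± 0.448 CPM in B6.SLE123 (SD, n = 4 mice each), and it was picked after its values were seen.

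Nav2, the neuron navigator gene that spans 48908716 to 49610090 on the plus strand with 50 exon blocks, went the other way, with 10.03, 12.1, 9.82 and 8.94 CPM in C57BL/6 and 2.21, 1.96, 2.04 and 1.496 CPM in B6.SLE123 mice. All B6.SLE123 mice were lower, and the fitted log2 difference was -2.39 (SE 0.14). Trpm4, a cation channel opened by calcium, differed less: it averaged 10.7 ± 0.930 CPM in C57BL/6 and 8.06 ± 0.799 CPM in B6.SLE123 (SD, n = 4 mice each), a log2 fold change of -0.41.

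Some others of this list are given although the naming rule did not pick them. Ppfia3, a liprin of the presynaptic active zone, and Ntn5, a netrin family gene, were higher by 0.79 and 0.90 on the log2 scale. Syngr4, a synaptogyrin, was lower, with 0.299 ± 0.109 CPM in C57BL/6 and 0.0944 ± 0.0342 CPM in B6.SLE123 (SD, n = 4 mice each). The calcium sensor gene Syt3 and the kinase gene Lmtk3, with log2 fold changes of -0.20 and -0.86, were the ones that were not called. Each of these 5 genes was under 5 CPM in every mouse.

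**Figure D3:**
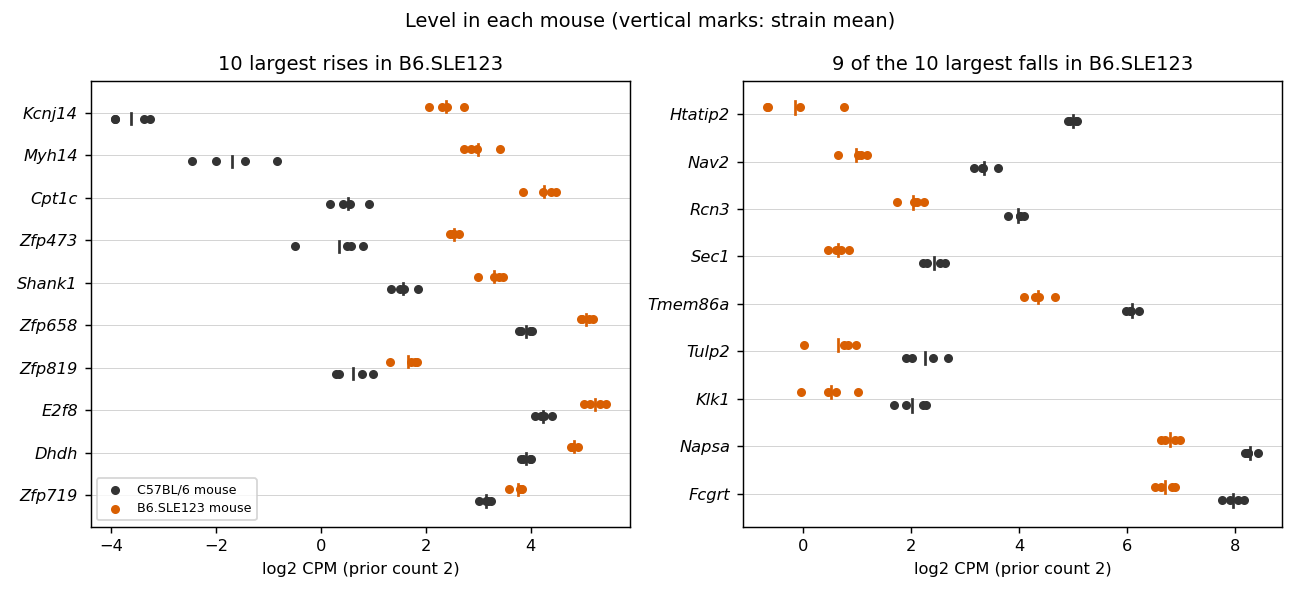
Log2 CPM (horizontal axis, prior count 2) of each mouse for the 10 largest rises (left) and 9 of the 10 largest falls (right) among called genes whose strains did not overlap and whose mean reached 100 counts in the strain with more. Points are mice, vertical marks the mean of a strain, and the genes were picked to have no overlap, with distances from 0.61 for Zfp719 to 7.92 for Kcnj14 in the fitted log2 fold change.

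Metabolic enzymes differed in both directions, with 2 genes more than 2-fold higher and 4 more than 2-fold lower. Of 17 genes on the list 14 were in the table, 6 were higher, 5 lower and 3 not called, and the median log2 fold change was 0.23. Over all genes the called share was 53.4%, and 2.76% were more than 2-fold higher and 8.29% more than 2-fold lower. Cpt1c (ENSMUSG00000007783, 44959372 to 44974851, minus strand, 16 exon blocks), the carnitine palmitoyltransferase of the brain, was at 1.82, 1.27, 1.403 and 1.06 CPM in C57BL/6 mice. In B6.SLE123 mice it was at 14.5, 22.4, 18.9 and 20.9 CPM, with a log2 fold change of 3.79 (SE 0.18). The lowest B6.SLE123 mouse was far above the highest C57BL/6 mouse, and 366 bases of its exons overlap 6530437J22Rik on the other strand.

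Dhdh, a dihydrodiol dehydrogenase, was at 16.01, 15.9, 14.5 and 14.1 CPM in C57BL/6 and at 30.1, 27.7, 27.96 and 27.3 CPM in B6.SLE123 mice, without overlap and with a log2 fold change of 0.91. Its exons overlap those of Tulp2 and Gm45808 over 984 bases. Tulp2, a tubby-like gene on the other strand, was at 5.22, 6.37, 3.69 and 3.97 CPM and at 1.61, 1.91, 1.72 and 0.945 CPM, so that this overlapping pair differed in opposite directions.

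Ldha, the lactate dehydrogenase chain that converts pyruvate to lactate, had the highest level per length of all 120 genes, at 88.5 CPM per kb of exon as a mean over the 8 mice. It was at 256, 243, 264 and 263 CPM in C57BL/6 and at 356, 336, 317 and 310.3 CPM in B6.SLE123 mice. The strains were close but did not overlap, and the log2 fold change was 0.36 (SE 0.05). Aldh16a1, an aldehyde dehydrogenase family member, was higher by 0.40 on the log2 scale, and Bcat2, the mitochondrial aminotransferase of branched-chain amino acids, had a log2 fold change of -0.57.

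Tmem86a, which encodes a lysoplasmalogenase of ether lipid metabolism, was at 63.3, 66.6, 75.1 and 67.7 CPM in C57BL/6 and at 19.6, 17.04, 20.5 and 25.4 CPM in B6.SLE123 mice. All B6.SLE123 mice were well below, with a log2 fold change of -1.73 (SE 0.10), and no annotated exon overlaps the gene. The fucosyltransferase gene Sec1 was at 4.84, 6.14, 4.57 and 5.76 CPM and at 1.55, 1.45, 1.302 and 1.73 CPM, a log2 fold change of -1.82. Reads of Sec1 are uncertain, because 519 bases of its exons overlap Ntn5 and because it is a close relative of Fut1 and Fut2 beside it. Sult2b1, a sterol sulfotransferase singled out after its values were seen, had 137 counts in all C57BL/6 and 5 in all B6.SLE123 mice, a ratio of 30.4 (95% counting interval 12.7 to 95) in CPM.

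The remaining metabolic genes were picked after their values were seen. Car11, a carbonic anhydrase-related protein gene, averaged 0.990 ± 0.0609 CPM in C57BL/6 and 0.299 ± 0.0973 CPM in B6.SLE123 (SD, n = 4 mice each). Gys1, the glycogen synthase of muscle and most tissues, was higher by 0.25 on the log2 scale. Fut1, a fucosyltransferase of the H antigen, was higher at a level under 1 CPM, with a log2 fold change of 1.59 (SE 0.53), whereas Fut2 had one of 0.20 and was not called. Etfb, of the mitochondrial electron transfer flavoprotein, and the steroid dehydrogenase gene Hsd17b14 were not called either, with log2 fold changes of -0.20 and 0.51.

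Zinc finger genes formed a cluster at the start of the window and differed in both directions. Of the 9 in the table, 4 were higher, 4 lower and 1 not called (53.4% of all genes called), and the median log2 fold change was 0.01. Zfp658 was at 15.9, 14.05, 16.3 and 13.6 CPM in C57BL/6 and at 34.5, 31.6, 36.6 and 31.02 CPM in B6.SLE123 mice. Zfp819, its near neighbour, was at 1.21, 1.65, 1.16 and 1.92 CPM and at 2.44, 3.41, 3.23 and 3.503 CPM. Both had no overlap between the strains, with log2 fold changes of 1.16 and 1.08, and Zfp719 between them had one of 0.61. These 3 genes lie side by side on the plus strand from 43562256 to 43618285.

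Zfp473, named in humans for a part in histone pre-mRNA processing, lies apart at 44731480 to 44751050 and was at 0.643, 1.42, 1.34 and 1.69 CPM in C57BL/6 and at 5.76, 5.67, 5.42 and 6.101 CPM in B6.SLE123 mice. Every B6.SLE123 mouse was above 5 CPM and every C57BL/6 mouse below 2 CPM, and the log2 fold change was 2.16 (SE 0.21). Its exons share 205 bases with Vrk3 on the other strand. Zfp715 and Zfp788 were lower, with log2 fold changes of -0.35 and -0.35, and Zfp141 had a log2 fold change of 0.01, which changes sign with the processing. Zfp976, picked after its values were seen, was at 1.74, 1.804, 1.62 and 1.56 CPM in C57BL/6 and at 0.0633, 0.215, 0.0888 and 0.157 CPM in B6.SLE123 mice, and Zfp975 beside it had a log2 fold change of -0.66. Zinc finger genes of a cluster are alike in sequence, and how reads that fit several of them were counted is not given in the sources used here.

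Of the 16 genes on the list of immune cells and antigen presentation, 11 were in the table. Of these, 7 were lower (26.6% of all genes), 1 was higher (26.7% of all genes) and 3 were not called, with a median log2 fold change of -0.59. Napsa, which encodes the aspartic protease napsin A, was at 293, 302, 302 and 344 CPM in C57BL/6 and at 104, 98.7, 118 and 126 CPM in B6.SLE123 mice. The strains were well separated, with a log2 fold change of -1.47 (SE 0.08), and 502 bases of its exons overlap the antisense Gm15396. Fcgrt (ENSMUSG00000003420, 45092990 to 45103851, minus strand, 7 exons), the heavy chain of the neonatal Fc receptor that recycles IgG and albumin, was at 239, 216, 287 and 266 CPM and at 98.5, 91.5, 114 and 118 CPM. The 4 values of B6.SLE123 all lay under those of C57BL/6, and its log2 fold change was -1.26 (SE 0.10).

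Cd37, a tetraspanin of leukocytes, was at 214, 220.2, 218 and 232 CPM in C57BL/6 and at 121, 112, 131 and 118 CPM in B6.SLE123 mice. The spread within each strain was small beside the distance between them, and the log2 fold change was -0.88 (SE 0.05). Spib, an Ets transcription factor close to PU.1 that plasmacytoid dendritic cells and B cells need, was at 129, 143, 141 and 138 CPM and at 118, 90.9, 110.5 and 116 CPM. The strains lay close but did not overlap, and its log2 fold change was -0.34 (SE 0.08). Flt3l, the cytokine that drives the development of dendritic cells, averaged 18.3 ± 0.809 CPM in C57BL/6 and 17.8 ± 3.23 CPM in B6.SLE123 (SD, n = 4 mice each) and was not called. It was named after its values were seen, as were Nkg7, a cytotoxic granule gene at 4.92 ± 1.52 CPM and 2.94 ± 0.495 CPM (SD, n = 4 each), and Nosip, the 1 gene of the list that was higher, by 0.16 on the log2 scale. Rras, a small GTPase, and the sphingosine kinase gene Sphk2 were lower, with log2 fold changes of -0.62 and -0.16, and Il4i1 and Clec11a were not called. Il4i1 and Clec11a averaged only 12.6 and 15.75 counts per mouse. Reads of Il4i1 are also uncertain, because its exons overlap Atf5, Nup62 and Tbc1d17 over 3602 bases. The summed red pulp macrophage markers were lower in the same 4 mice, and their part in the differences of these immune genes was not tested.

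Of the 10 genes of cell death, stress and genome maintenance, all in the table, 1 was higher, 5 were lower and 4 were not called, a called share near the 53.4% of all genes. The widest difference of the list was that of Htatip2 (ENSMUSG00000039745, 49759115 to 49773975, plus strand, 6 exons), a proapoptotic gene also known as Tip30. It was at 33.6, 30.6, 29.8 and 33.1 CPM in C57BL/6 and at 0.570, 0.564, 0.888 and 1.61 CPM in B6.SLE123 mice. The highest B6.SLE123 mouse, replicate 4, stood far below the lowest C57BL/6 mouse, and the log2 fold change was -5.19 (SE 0.20), with no overlapping gene in the annotation.

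The others on this list lay within 2-fold. Ppp1r15a, also called GADD34, which restores translation after stress, was at 99.9, 100.2, 85.8 and 88.4 CPM and at 67.5, 60.5, 69.2 and 65.03 CPM, a log2 fold change of -0.51. Pold1, the catalytic subunit of DNA polymerase delta, was the gene that was higher, by 0.25 on the log2 scale. Bax, the pore-forming protein of the mitochondrial cell death pathway, was at 51.04, 49.8, 52.1 and 52.7 CPM and at 50.7, 50.7, 47.5 and 52.8 CPM, with values of the strains interleaved. The kinase gene Vrk3 had a log2 fold change of -0.04 and was not called either. Named after their values were seen, Akt1s1, the PRAS40 subunit of the mTORC1 kinase complex, was at 39.4, 34.05, 41.3 and 36.8 CPM and at 19.96, 20.6, 23.4 and 24.01 CPM, without overlap. Bcl2l12, a Bcl-2 family relative whose exons overlap Irf3, and Gtf2h1, a subunit of the repair and transcription factor TFIIH, had log2 fold changes of -0.36 and -0.25.

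In the list of transcription and RNA genes, 16 of 19 were in the table, 4 higher, 5 lower and 7 not called, near the 53.4% of all genes called, and the median log2 fold change was -0.04. E2f8, an atypical E2F repressor of the cell cycle, was at 19.1, 21.1, 16.9 and 18.4 CPM in C57BL/6 and at 39.96, 43.2, 35.2 and 32.2 CPM in B6.SLE123 mice. The strains did not overlap, and with a log2 fold change of 1.0004 (SE 0.10) the gene sits on the 2-fold line. Snrnp70, the core protein of the U1 splicing particle, was at 466, 457, 439 and 477 CPM and at 274, 309.9, 321 and 287 CPM. Its distance between the strains was wider than either spread, with a log2 fold change of -0.62 (SE 0.05).

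Nr1h2, which encodes the oxysterol receptor LXR beta, was at 142, 143, 138 and 138 CPM in C57BL/6 and at 129, 140.3, 139 and 139 CPM in B6.SLE123 mice, and the values overlapped. Scaf1 and Prr12 were not called, with log2 fold changes of -0.05 and -0.11. Tead2, a partner of the YAP coactivator, was more than 2-fold lower, at 1.95 ± 0.439 CPM in C57BL/6 and 0.827 ± 0.105 CPM in B6.SLE123 (SD, n = 4 mice each). Dbp, a clock output factor, and Ctu1, a tRNA thiolation enzyme, were lower, with log2 fold changes of -0.62 and -0.72, while the nucleoporin gene Nup62 and the Mediator-linked gene Ptov1 were higher by 0.15 and 0.23. These last 5 genes were picked after their values were seen. Prmt3, an arginine methyltransferase and the last gene of the window, averaged 31.7 ± 1.27 CPM in C57BL/6 and 26.01 ± 0.808 CPM in B6.SLE123 (SD, n = 4 mice each).

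All 17 genes of the cytoskeleton and membrane traffic list were in the table, with 5 higher, 6 lower and 6 not called (53.4% of all genes called) and a median log2 fold change of -0.12. Myh14 (ENSMUSG00000030739, 44605803 to 44670843, minus strand, 47 exon blocks), the heavy chain of nonmuscle myosin IIC, was at 0.492, 0.115, 0.183 and 0.298 CPM in C57BL/6 mice. In B6.SLE123 mice it was at 7.85, 6.58, 7.19 and 10.7 CPM, a log2 fold change of 4.88 (SE 0.29). Even the lowest B6.SLE123 mouse was far above the highest C57BL/6 mouse, and the overlap of its exons with 2310016G11Rik on the other strand is 60 bases.

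Rcn3, a calcium-binding protein of the endoplasmic reticulum, was at 13.9, 16.9, 16.04 and 16.1 CPM in C57BL/6 and at 3.26, 4.09, 4.68 and 4.25 CPM in B6.SLE123 mice, all lower, with a log2 fold change of -1.95. Its exons share 290 bases with Gm45669. Hps5, a subunit of the BLOC-2 complex of lysosome-related organelles, was at 186, 180.1, 178 and 175 CPM and at 114, 123, 118 and 107 CPM, also without overlap, and its log2 fold change was -0.64. Nucb1, a calcium-binding protein of the Golgi, had a log2 fold change of -0.41. Emp3, an epithelial membrane protein family member, averaged 54.9 ± 2.83 CPM in C57BL/6 and 54.9 ± 3.78 CPM in B6.SLE123 (SD, n = 4 mice each), and the values overlapped. Kdelr1, which returns proteins to the endoplasmic reticulum, Tbc1d17 and the clathrin adaptor subunit Ap2a1 had log2 fold changes of -0.13, -0.15 and 0.05 and were not called.

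Other genes of this list are named after their values were seen. Tsg101, of the ESCRT-I sorting complex, Uevld beside it and the palmitoyltransferase gene Zdhhc13 were higher by 0.21, 0.44 and 0.44 on the log2 scale. Cyth2, an exchange factor of ARF proteins, was higher by 0.28. Plekha4 was more than 2-fold lower, with 0.681, 0.806, 0.884 and 0.894 CPM in C57BL/6 and 0.127, 0.0806, 0.0888 and 0.197 CPM in B6.SLE123 mice. The deubiquitinase gene Josd2 and the planar polarity gene Fuz were lower, with log2 fold changes of -0.54 and -0.61.

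The kallikrein cluster was low in these cells. The table lists 4 kallikreins, of which 2 were lower and 2 were not called (26.6% of all genes lower). Klk1, the tissue kallikrein that releases kinins, was at 4.62, 4.76, 3.14 and 3.67 CPM in C57BL/6 and at 1.96, 1.45, 1.302 and 0.905 CPM in B6.SLE123 mice, without overlap and with a log2 fold change of -1.50 (SE 0.22). Klk1b27 had 70 counts over the C57BL/6 mice and 2 over the B6.SLE123 mice, a ratio of 38.8 (95% counting interval 10.3 to 327) in CPM. Klk8 and Klk9 had log2 fold changes of -0.49 and 0.26. The Klk1b genes are near-identical copies of one another, so the reads of Klk1 and Klk1b27 are uncertain.

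**Figure D4:**
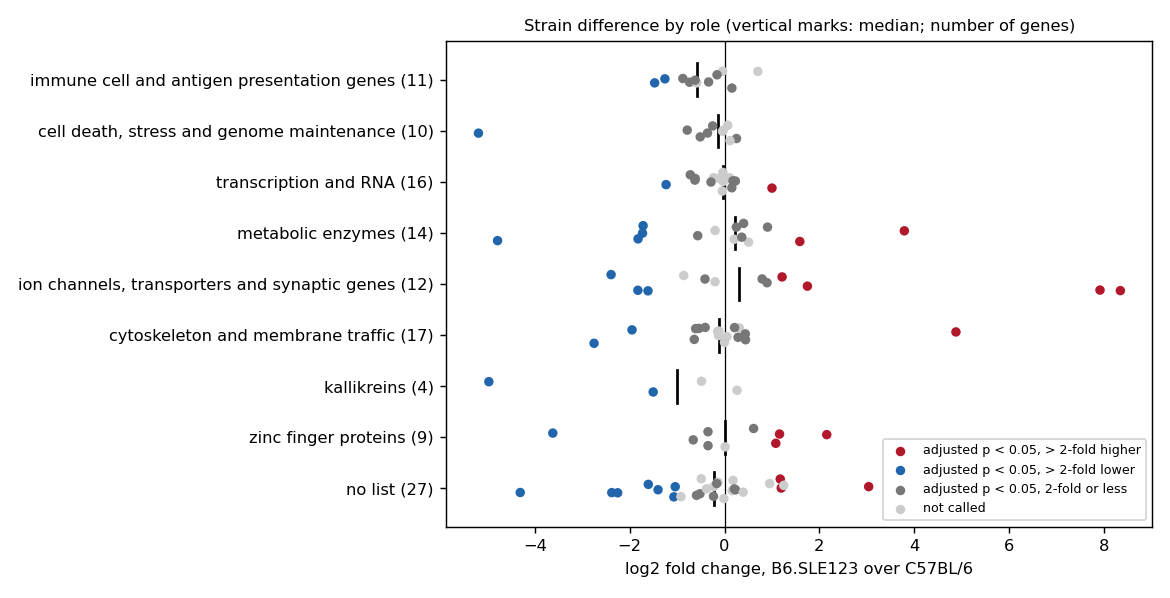
Fitted log2 fold change (B6.SLE123 over C57BL/6, horizontal axis) of each of the 120 genes, grouped by list (vertical axis, number of genes in brackets), with the median of a list as a vertical mark and the call as colour. Medians lie between -0.995 for the 4 kallikreins and 0.30 for the 12 channel and synaptic genes, and each of the groups holds genes more than 2-fold different.

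The 27 genes on no list comprised 5 higher, 11 lower and 11 not called genes, 3 of them more than 2-fold higher and 7 more than 2-fold lower. Over all genes 53.4% were called, 2.76% were more than 2-fold higher and 8.29% more than 2-fold lower. Those named here were chosen after their values were seen. Tph1, the enzyme that makes serotonin outside the brain, had 4 counts over the C57BL/6 and 40 over the B6.SLE123 mice, a ratio of 9.02 (95% counting interval 3.26 to 34.7) in CPM. Abcc8, the sulfonylurea receptor, had 27 counts against 1, a ratio of 29.9 (95% counting interval 4.93 to 1230) toward C57BL/6. Mybpc2, of the myosin-binding proteins of fast muscle, averaged 0.942 ± 0.161 CPM in C57BL/6 and 2.16 ± 0.273 CPM in B6.SLE123 (SD, n = 4 mice each). Dkkl1 was lower, at 2.497, 1.88, 1.098 and 1.82 CPM and at 0.443, 0.269, 0.414 and 0.394 CPM, and Vsig10l, Ceacam18, Izumo1 and AI987944 had log2 fold changes of -1.04, -1.40, -2.38 and -1.07. Prmt1, the main arginine methyltransferase of mammalian cells, averaged 72.4 ± 1.13 CPM in C57BL/6 and 85.1 ± 2.92 CPM in B6.SLE123 (SD, n = 4 mice each), a log2 fold change of 0.23.

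The genes with larger differences were expressed at lower levels. The 37 genes that differed more than 2-fold had a median of 80.4 counts per mouse and of 0.606 CPM per kb of exon, and 21 of them averaged under 100 counts. The other 83 had a median of 772 counts and of 6.43 CPM per kb, and 18 of them averaged under 100. With a mean of at least 100 counts, 81 genes remained, and 16 of these differed more than 2-fold, 6 higher and 10 lower, against 7.04% of the 10620 such genes of the table. Over the whole table, too, this 7.04% was below the 11.1% of all genes, so the relation to level is not particular to the window. The share of genes with exons that overlap another annotated gene was 45.9% among the 37 and 47.0% among the 83. In all, 56 of the 120 genes have such exons, and reads over them are uncertain. Beside the overlaps already given, they include E2f8 and Nav2, which share 610 and 295 bases with Gm2788, Tbc1d17, which shares 3512 bases with Il4i1 and Akt1s1, Ap2a1, which shares 720 bases with Fuz, Bcat2, which shares 622 bases with 0610005C13Rik, and Cd37, which shares 13 bases with Tead2. Of the 10 genes with the highest level per length (Ldha, Fcgrt, Napsa, Emp3, Snrnp70, Cd37, Spib, Nr1h2, Kdelr1 and Bax), Fcgrt and Napsa were the ones that differed more than 2-fold.

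**Figure D5:**
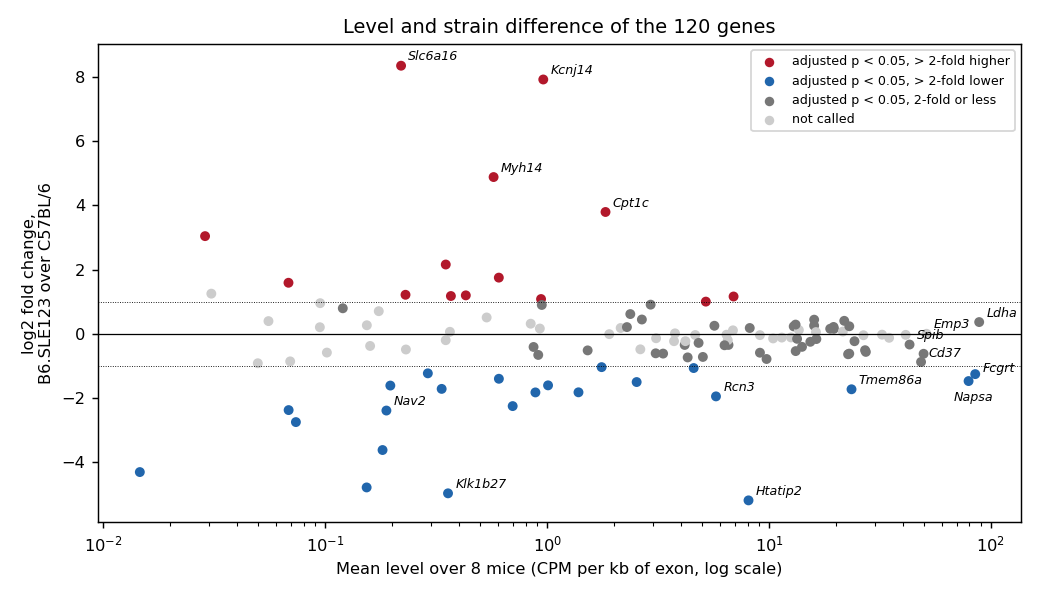
Fitted log2 fold change (B6.SLE123 over C57BL/6, vertical axis) against the mean level over the 8 mice (CPM per kb of exon, horizontal axis, log scale) for the 120 genes, coloured by call. The more than 2-fold genes have a median of 0.606 CPM per kb, while Napsa and Fcgrt differ at 79.3 and 85.0 CPM per kb.

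Neighbouring genes differed in the same and in opposite directions. The 120 genes form 119 pairs that follow each other in the window. Genes left out by the rule were skipped, so some pairs have such a gene between them, as Gys1 and Bax have Ftl1. Both members passed the adjusted p in 52 pairs, and in 22 of these the directions were opposite. Of the 13765 neighbouring pairs of the whole table, where no gene was skipped, both passed in 29.5%, and 41.1% of those went opposite ways. In 11 pairs both members differed more than 2-fold, and 5 of these went opposite ways, among them Zfp819 higher beside Ceacam18 lower, Ccdc155 higher beside Dkkl1 lower, Fut1 higher beside Izumo1 lower and E2f8 higher beside Nav2 lower. Over the whole table both differed more than 2-fold in 2.06% of pairs, and 17.6% of those went opposite ways. No test of these shares was made. Starts of 10 pairs lay within 1000 bases, with the earlier gene on the minus strand and the later on the plus strand. Genes so arranged can share a promoter region, and in some of these pairs the annotated genes overlap at their starts. Both genes were called in 3 of these pairs, with opposite directions in 1, Aldh16a1 higher and Pih1d1 lower. The exons of Aldh16a1 and Pih1d1 overlap over 149 bases, so reads there are uncertain.

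Genes just inside and just outside the edges of the window are given for their values. The first gene, AI987944, averaged 24.8 ± 1.24 CPM in C57BL/6 and 11.9 ± 1.300 CPM in B6.SLE123 (SD, n = 4 mice each), and Zfp619, the nearest gene of the table before the edge, was at 20.4 CPM and 8.61 CPM. Beyond the last gene, Prmt3, the next in the table was Fancf, at 3.20 CPM in C57BL/6 and 1.98 CPM in B6.SLE123 mice.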

How the data were processed

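CD11c-positive splenocytes of 4 C57BL/6 and 4 B6.SLE123 mice were profiled by stranded mRNA sequencing. The methods describe trimming with cutadapt, alignment to mm10 (a C57BL/6 sequence) by STAR and counting in featureCounts. Whether reads from the foreign sequence of B6.SLE123 mice align to mm10 as well as C57BL/6 reads do was not tested. The part of this in the differences of the window was not tested either. Tool versions and the strand setting of the counting are not given in the sources used here, so reads over exons that overlap another gene are uncertain. The deposited table holds the raw count per gene and mouse for 13786 protein-coding genes. It also holds the authors' own DESeq2 comparison, namely a mean normalized signal, a log2 fold change, a test score, a raw and an adjusted p-value and a fold ratio per gene, and none of these was used.

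Counts were scaled by TMM and fitted over all 13786 genes, without a filter, by the quasi-likelihood test of edgeR 4.0.16 (R 4.3.3) with Benjamini-Hochberg adjustment. A call is an adjusted p below 0.05. The fit was tested on simulated data. CPM on the log2 scale has a prior count of 2. Exons, overlaps and lengths came from GENCODE M21, in which all 120 genes have the table's coordinates, and upstream sequences from the RefSeq table of GRCm38.p6. Counting intervals (exact, 95%) and the floor of 3 counts cover counting error only. Totals of 25563070 to 37367094 counts per mouse set the depth.

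The members, the role lists and the cell type markers were chosen with earlier results of these data known. Genes were named by a rule: the 10 largest rises and falls among called genes whose strains did not overlap and whose mean reached 100 counts in the strain with more; the 10 with the highest level per exon length; the 4 with the largest mean count of each role list; and the genes at the edges. Alternatives were relative log expression factors, TMM from genes outside chromosomes 1, 4 and 7, at least 10 counts in every sample, DESeq2 1.42.0, limma-voom (limma 3.58.1), the replicate number as a block, each mouse left out, genes without overlapping exons, genes with at least 100 counts and other thresholds. Values of some genes that the rule picks are not reported here. The other experiments of the study were not analysed here.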

Additional observations from a re-analysis of the deposited data

Results flagged for a closer look

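Nr1h2, the gene of LXR beta, stood apart in 1 mouse. In B6.SLE123 replicate 1 its log2 CPM was 7.01, where the median of the 4 mice was 7.12, and its gap to the nearest other mouse took 0.861 of the whole range, above Dixon's critical value for 4 samples. This was 1 of 98 groups of 4 mice examined over the named genes, of which chance alone would set 4.9 apart.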

How the results depend on the processing

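The counts and the median of the 120 genes were recomputed under 14 further fits and 4 other choices of genes or thresholds. With only genes that had at least 10 counts in every sample, 96 of the 120 were tested and 22 differed more than 2-fold, 7 higher and 15 lower, against 37, while 985 of the 12053 genes of the table that remained did so. Of the 64 genes whose exons overlap no other gene, 43 were called, 20 differed more than 2-fold and the median log2 fold change was -0.12 (-0.1171). Of the 81 genes with a mean of at least 100 counts, 16 differed more than 2-fold. In these restricted sets fewer genes could be counted. Leaving out each mouse in turn gave 79 to 86 called genes, 34 to 39 genes with a more than 2-fold difference and a median log2 fold change of -0.1586 to -0.1296. Other scalings, DESeq2 and limma-voom gave 81 to 83 called genes and 36 or 37 with a more than 2-fold difference, and none moved the median of all genes by more than 0.1.

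For single named genes, 667 of 682 recomputed values had the same sign and call, 9 passed the threshold only under the alternative and 6 changed sign, all 6 for genes that were not called. The log2 fold change of Emp3 ran from -0.03763 to 0.03738 as each mouse was left out, with the sign changed without replicate 2 of either strain. That of Zfp141 ran from -0.03628 to 0.05488, with the sign changed without C57BL/6 replicate 3, B6.SLE123 replicate 2 or B6.SLE123 replicate 3, and came to -0.000698 under the filter of 10 counts per sample. The cause was not tested.

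The replicate numbers 1 to 4 of the strains do not mark shared animals. Deviations from the strain means correlated at 0.0763, 0.231, 0.096 and 0.122 between mice of the same number. Between mice of different numbers the correlation ran from -0.244 to 0.0981. B6.SLE123 replicates 2, 3 and 4 correlated most with the C57BL/6 mouse of their own number. B6.SLE123 replicate 1 correlated most with C57BL/6 replicate 3 (0.0981), and C57BL/6 replicate 1 with B6.SLE123 replicate 3 (0.0795). Whether the numbers mark a shared batch was not tested. With the replicate number as a block, 80 of the 120 genes were called, 35 differed more than 2-fold (12 higher, 23 lower) and the median log2 fold change was -0.1469; over all genes 7183 were called, against 7356. Depth limits the low genes: 39 of the 120 averaged under 100 counts, and 7 had at most 3 counts in every mouse of a strain.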
